A study of Homo sapiens with 6 samples.

Results

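SPRR2D, 7 keratin genes (KRT7, KRT8, KRT14, KRT18, KRT19, KRT80 and KRT81), the claudin gene CLDN4 and the epithelial transcription factor gene ELF3 were followed in LN229 cells treated with ursodeoxycholic acid (UDCA). The 10 genes are those of a named set of epithelial genes that the deposited table of 33890 genes holds. The set was drawn up around the higher SPRR2D and the lower KRT14 in treated cells, so its members were chosen by the measured levels of this very contrast. The levels of the 10 genes in the groups are therefore a description, with no test. LN229 is an established human glioblastoma cell line, labelled grade IV glioma. UDCA is a hydrophilic bile acid. There were 3 libraries of LN229 cells given 800 µM UDCA for 48 h (UDCA 1 to 3) and 3 of LN229 cells left untreated (control 1 to 3). No vehicle is named for the control cells, all 6 libraries come from 1 cell line, and nothing in the labels says that the libraries of a group come from separate cultures. The p-values below measure the spread between these libraries, which may be technical.

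Keratins are the intermediate filament proteins of epithelia. A filament is built from pairs of 1 acidic (type I) and 1 basic to neutral (type II) chain, and the pairs differ between tissues: KRT8 with KRT18 in simple epithelia, KRT5 with KRT14 in the basal layer of stratified epithelia, KRT1 with KRT10 in the layers above it. SPRR2D belongs to the small proline-rich proteins, which are cross-linked into the cornified envelope, the protein shell of the outermost keratinocytes. Claudins seal the tight junctions between epithelial cells, and ELF3 is an ETS-family transcription factor found mainly in epithelia. Glial cells are known for vimentin, nestin and GFAP filaments in place of keratins.

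Values are FPKM, reads scaled by exon length and by the library total, and the table could be turned back into whole reads. Library totals were 15988951 to 17045218 reads in UDCA cells and 16639832 to 17743022 in control cells. At this depth 3 reads in 1 kb of exon correspond to 0.169 to 0.188 FPKM. Mitochondrial genes took 0.0263 to 0.0271% of reads in UDCA cells and 3.13 to 3.16% in control cells, which moved with every group difference below, and its part in them was not tested. UDCA 3 stood furthest from its group, and no library was left out of the main values. Genes that reached 1 FPKM in 3 or more libraries were compared on log2(FPKM + 1) with limma-trend, and called at an adjusted p under 0.05 (Benjamini-Hochberg). Of 14380 genes tested, 80.8% were called, 45.1% higher and 35.7% lower in UDCA cells, so a call alone sets no gene apart here. Of the 10 genes, 8 passed the filter (KRT7 and KRT19 did not), and 5 were called higher, 2 lower and 1 neither way. SPRR2D, ELF3, CLDN4 and KRT14 were under 1 FPKM in one group and passed through the other, so they had to differ. These counts rest on the contrast that chose the genes and nothing is read from them.

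Promoter sequence in the RefSeq tables was matched for 3 of the 10 genes, and those of ELF3 and CLDN4, both higher in UDCA cells, are shown because they hold motif letters. Each is the 250 bases before the RefSeq transcription start on build GRCh38.p14, 5′ to 3′ on the gene's strand. They lie at chr1:202010337-202010586 (+) for ELF3 and chr7:73830746-73830995 (+) for CLDN4. Capitals mark the motif matches.
ELF3: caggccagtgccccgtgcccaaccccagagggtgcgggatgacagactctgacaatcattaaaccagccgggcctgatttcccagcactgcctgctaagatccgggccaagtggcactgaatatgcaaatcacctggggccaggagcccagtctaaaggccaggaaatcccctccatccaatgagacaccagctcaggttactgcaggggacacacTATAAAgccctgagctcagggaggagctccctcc
CLDN4: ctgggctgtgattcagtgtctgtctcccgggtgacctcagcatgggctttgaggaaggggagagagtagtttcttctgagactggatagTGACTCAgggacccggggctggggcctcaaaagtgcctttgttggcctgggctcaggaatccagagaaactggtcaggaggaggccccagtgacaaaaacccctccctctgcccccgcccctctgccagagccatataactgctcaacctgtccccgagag
The motifs searched on both strands, from 250 bases before to 50 after the start, were AP-1 (TGACTCA), ATF4-CHOP (TGATGCAA) and the TATA box (TATAAA). The ELF3 promoter held a TATA match at -34 to -29. In the CLDN4 promoter an AP-1 match lay at -161 to -155. The KRT8 promoter held none of these letters in this window. Among 35116 promoters of the same length, 11.5% held the TATA letters, 4.95% the AP-1 letters and 0.866% the ATF4-CHOP letters. These matches are a description of sequence, not of binding. The deposited table follows GENCODE 29, whose outermost gene start lies 2642 bases from the RefSeq start of ELF3, 31454 bases from that of CLDN4 and 23485 bases from that of KRT8, so reads cannot be tied to these starts.

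SPRR2D (ENSG00000163216, chr1:153039725-153041931, minus strand, GRCh38) had the highest level of the 10 genes in UDCA cells and was close to undetected in control cells. It stood at 268, 204 and 284 FPKM in UDCA 1 to 3, against 0.227, 0.440 and 0.107 FPKM in control 1 to 3. All UDCA libraries were far above all control libraries, and UDCA 2 was the lowest of the treated ones. The means were 252 ± 42.3 FPKM in UDCA cells and 0.258 ± 0.169 FPKM in control cells (SD, n = 3 each), from 13303 and 14 reads over the libraries of each group. The ratio of read rates was 980, with a 95% counting interval of 584 to 1793 that covers counting error only. In bulk RNA, a change in the number of cells that express a gene and a change in RNA per cell cannot be told apart, here or for any gene below.

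The other SPRR2 genes were far below SPRR2D, and all their reads lay in UDCA cells. SPRR2A, SPRR2B and SPRR2F, the other family members listed, had 29, 1 and 7 reads in UDCA cells and 0 reads each in control cells. SPRR2A was at least 9.97-fold higher in UDCA cells when control cells are put at 3 reads in all. The family arose by gene duplication, and 19.3% of the 50-base windows of SPRR2D exons also occur in another gene, mostly SPRR2A and SPRR2B, which falls to 3.74% for 100-base windows. Neither read length nor the handling of reads with several positions was given in the sources used here, so the few SPRR2A reads are uncertain.

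ELF3 (ENSG00000163435, chr1:202007945-202017188, plus strand) was detected in UDCA cells and not in control cells. Its level was 1.57, 1.501 and 1.62 FPKM in UDCA 1 to 3, against 0 FPKM in each control library. The treated libraries were close to each other at 1.56 ± 0.0605 FPKM (SD, n = 3), from 562 reads over the group, against 0 reads over the control group. Set against a floor of 3 reads over the control group, ELF3 was at least 193-fold higher in UDCA cells. Exons of ELF3-AS1, its antisense RNA, and of AL691482.3 cover 18.5% of ELF3 exon bases, and whether the counting used strand is not given. ELF3-AS1 itself had 118 reads in UDCA cells and 126 reads in control cells, at 0.423 ± 0.0725 and 0.441 ± 0.141 FPKM (SD, n = 3 each), with groups that overlapped.

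CLDN4 (ENSG00000189143, chr7:73799542-73832693, plus strand) encodes a claudin of tight epithelia and was low in both groups. It had 1.08, 1.41 and 1.34 FPKM in UDCA 1 to 3, against 0.511, 0.618 and 0.551 FPKM in control 1 to 3. The groups did not overlap, and the mean was 2.28-fold higher in UDCA cells, at 1.28 ± 0.175 against 0.560 ± 0.0540 FPKM (SD, n = 3 each).

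**Figure D1:**
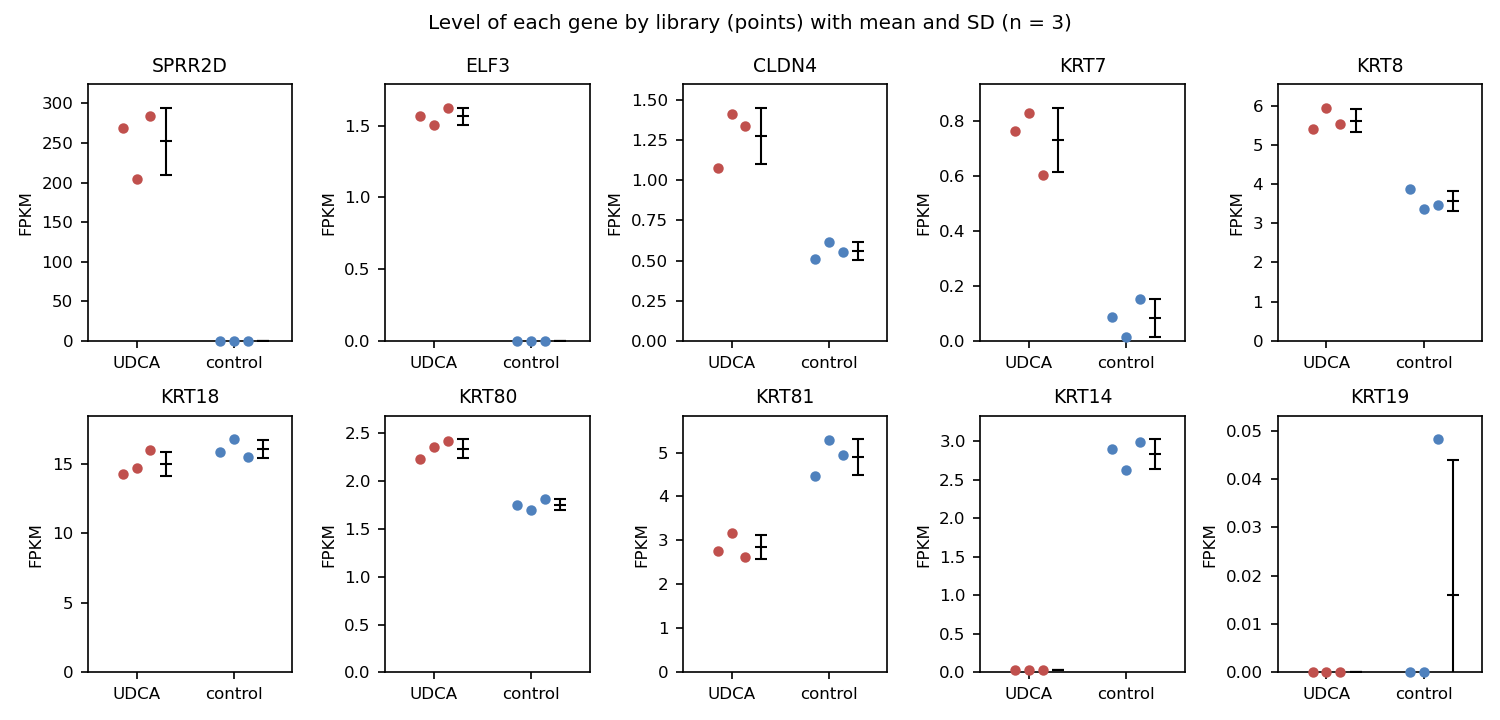
Level of each of the 10 genes in FPKM (vertical axes start at 0 and differ between panels) in the 3 UDCA libraries (red) and the 3 control libraries (blue); bars give the mean and SD. SPRR2D, ELF3, CLDN4, KRT7, KRT8 and KRT80 lie higher in every UDCA library, KRT14 and KRT81 lower, KRT18 overlaps, and KRT19 has reads in control 3 alone.

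KRT8 and KRT18, the type II and type I partners of simple epithelia, were the main pair among the chosen keratins. Of the pair, KRT8 alone had groups that did not overlap. KRT8 (ENSG00000170421, chr12:52897187-52949954, minus strand) had 5.39, 5.94 and 5.52 FPKM in UDCA 1 to 3, against 3.87, 3.36 and 3.47 FPKM in control 1 to 3. Every UDCA library was above every control library, and the mean was 1.57-fold higher, at 5.62 ± 0.289 against 3.57 ± 0.267 FPKM (SD, n = 3 each). KRT18 (ENSG00000111057, chr12:52948871-52952901, plus strand) had 14.3, 14.7 and 15.98 FPKM in UDCA cells, against 15.9, 16.8 and 15.5 FPKM in control cells. The KRT18 groups overlapped, with means of 15.0 ± 0.879 and 16.04 ± 0.656 FPKM (SD, n = 3 each), and KRT18 was not called. It was called lower after quantile or median-ratio scaling and without UDCA 3, with a log2 change of -0.18 to -0.06 over all settings.

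The ratio of KRT8 to KRT18 levels, which a shift of the whole library cannot move, was 0.377, 0.403 and 0.346 in UDCA 1 to 3, against 0.244, 0.201 and 0.224 in control 1 to 3. The ratio was higher in every UDCA library, with means of 0.375 ± 0.0290 in UDCA cells and 0.223 ± 0.0216 in control cells (SD, n = 3 each). The genes lie head to head on opposite strands, and 16.3% of KRT18 exon bases overlap KRT8 exons, so reads there cannot be assigned without strand. Both have many processed copies in the genome: 16.1% of the 50-base windows of KRT8 and 24.5% of those of KRT18 occur in another gene, against 5.51% and 8.39% of 100-base windows.

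Of 20 listed KRT8 pseudogenes, 3 were tested, and these were higher in UDCA cells, while most of the others had few reads and lay in either direction. KRT8P39 averaged under 1 FPKM in control cells and reached the filter mainly through UDCA cells, so no test of it is given. The others called were KRT8P12 and KRT8P33, where 45.1% of all genes tested were called higher. KRT8P12, at chr3:160565447-160569248, had 16.9 ± 1.10 FPKM in UDCA cells and 4.02 ± 0.0730 FPKM in control cells (SD, n = 3 each), 4.20-fold higher (limma adjusted p = 9.63e-08). In FPKM this pseudogene stood above KRT8, with 2047 exon bases against 6881 for KRT8, but in reads it stood below. It had 1728 reads against 1935 for KRT8 in UDCA cells, and 424 against 1265 in control cells. KRT8P33 was 4.61-fold higher, at 5.07 ± 0.361 against 1.10 ± 0.186 FPKM (limma adjusted p = 2.92e-06), and KRT8P39 was 1.86-fold higher, at 1.47 ± 0.0930 against 0.789 ± 0.225 FPKM. The ratio of KRT8P12 to KRT8 was 3.00 ± 0.0888 in UDCA cells and 1.13 ± 0.0724 in control cells (SD, n = 3 each), so the pseudogene was not a fixed share of KRT8. Of the 50-base windows of KRT8 exons, 4 occur in KRT8P12, 128 in KRT8P33 and 13 in KRT8P39, and how reads of these copies were assigned was not tested. Exons of KPNA4, on the other strand, cover 6.94% of KRT8P12 exon bases, so reads there cannot be assigned without strand. Of 29 listed KRT18 pseudogenes, 0 passed the filter, with 104 reads in UDCA cells and 166 in control cells over all of them.

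KRT7 (ENSG00000135480, chr12:52232520-52252186, plus strand), a type II keratin of glandular and ductal epithelia, stayed under the filter. Its values were 0.764, 0.831 and 0.604 FPKM in UDCA 1 to 3, against 0.0881, 0.0142 and 0.151 FPKM in control 1 to 3. All UDCA libraries were higher, with 150 reads in UDCA cells and 18 in control cells, and the mean ratio was 8.67. KRT7-AS, which overlaps KRT7 on the other strand, had 64 reads in UDCA cells and 5 in control cells. Exons of other genes, on the opposite strand, cover 7.67% of KRT7 exon bases, and 16.7% of KRT7-AS exon bases lie in KRT7 exons, so reads of those stretches cannot be assigned without strand. KRT19 (ENSG00000171345, chr17:41523617-41528308, minus strand), a type I keratin of simple epithelia that lacks the tail domain, had 0 reads in every UDCA library, and 2 reads in control 3 and none in control 1 and 2. It was at the floor in both groups and no fold is given.

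KRT14 (ENSG00000186847, chr17:41582279-41586921, minus strand), the type I keratin of basal keratinocytes, was low in control cells and nearly absent from UDCA cells. It had 0.0274, 0.0257 and 0.0258 FPKM in UDCA 1 to 3, which is 1 read in each, against 2.90, 2.62 and 2.99 FPKM in control 1 to 3. The groups were far apart, and libraries within a group were close. The rate ratio of control to UDCA cells was 108, with a 95% counting interval of 36.6 to 526, from 3 reads in UDCA cells and 334 in control cells. KRT5, its usual type II partner, had 4 reads in UDCA cells and 0 in control cells. In neither group, then, were both partners above 4 reads. KRT14 shares 16.8% of its 50-base windows with other genes, mainly KRT16, and 4.08% of its 100-base windows. KRT16 had 23 reads in UDCA cells and 5 in control cells.

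KRT80 (ENSG00000167767, chr12:52168996-52192000, minus strand), a type II keratin found in many epithelia, was modestly higher. It had 2.23, 2.36 and 2.42 FPKM in UDCA 1 to 3, against 1.75, 1.70 and 1.81 FPKM in control 1 to 3. The groups did not overlap, with a mean 1.33-fold higher in UDCA cells, at 2.34 ± 0.0997 against 1.76 ± 0.0584 FPKM (SD, n = 3 each). Only 0.36% of its 50-base windows occur elsewhere.

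KRT81 and KRT86, type II keratins of the hair cortex, lie near each other on chromosome 12 and went in opposite directions. KRT81 (ENSG00000205426, chr12:52285913-52291534, minus strand) had 2.76, 3.16 and 2.63 FPKM in UDCA 1 to 3, against 4.46, 5.27 and 4.94 FPKM in control 1 to 3. Every UDCA library was lower, with a mean of 2.85 ± 0.280 against 4.89 ± 0.411 FPKM (SD, n = 3 each), 1.72-fold lower in UDCA cells. KRT86 had 1.52, 1.62 and 2.49 FPKM in UDCA 1 to 3, against 0.653, 0.898 and 0.235 FPKM in control 1 to 3. KRT86 was 3.14-fold higher and its groups did not overlap, but it passed the filter through the UDCA libraries alone and had to differ, so no test of it is given. UDCA 3 was the highest treated library and control 3 the lowest control. Exons of AC021066.1, AC021066.3 and AC121757.1, on either strand, cover 8.6% of KRT86 exon bases, so reads there are of uncertain origin. KRT81 shares 43.7% of its 50-base windows with other genes, mostly KRT86, and still 29.7% of its 100-base windows, so the split of reads between them is uncertain. KRT87P, a pseudogene of this group, had 1.29 ± 0.235 FPKM in UDCA cells and 0.108 ± 0.0354 FPKM in control cells (SD, n = 3 each), 11.9-fold higher, and likewise passed through UDCA cells alone.

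**Figure D2:**
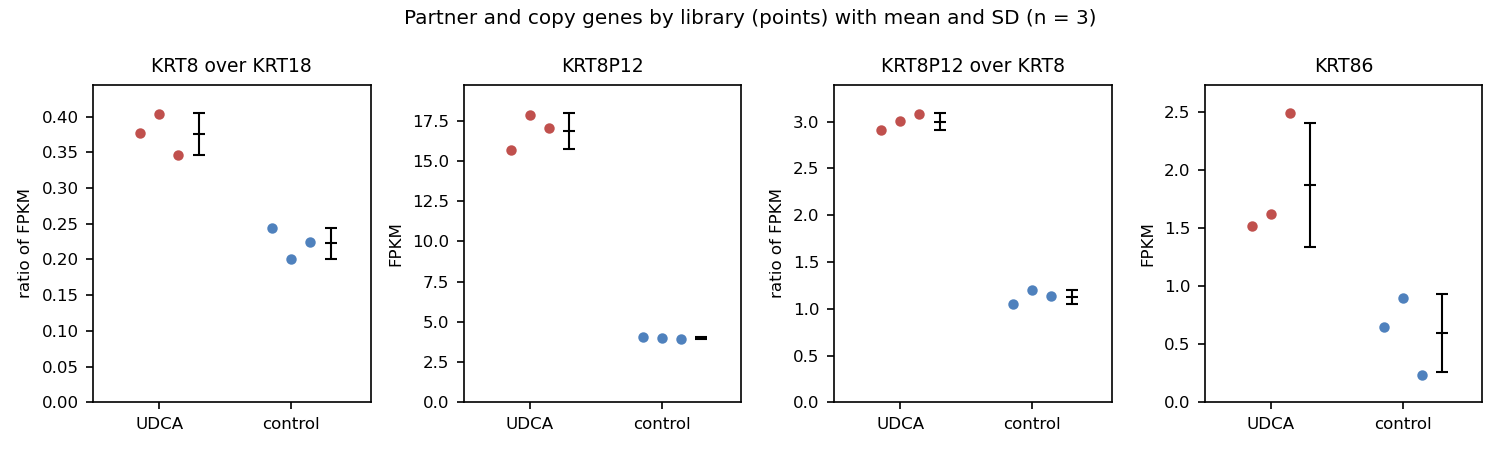
Ratio of KRT8 to KRT18 levels, level of the pseudogene KRT8P12 in FPKM, ratio of KRT8P12 to KRT8 and level of KRT86 in FPKM, in UDCA libraries (red) and control libraries (blue), with mean and SD (n = 3). In each panel every UDCA library lies above every control library.

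Ranked by level, the order in UDCA cells was SPRR2D, KRT18, KRT8, KRT81, KRT80, ELF3, CLDN4, KRT7, KRT14 and KRT19, and no neighbours in it had overlapping ranges. In control cells the order was KRT18, KRT81, KRT8, KRT14, KRT80, CLDN4, SPRR2D, KRT7, KRT19 and ELF3, with overlapping ranges from SPRR2D downwards. Thus KRT8 and KRT81 changed places, and KRT14 stood above KRT80 in control cells alone. This order is in FPKM and depends on exon length, which is 6881 bases for KRT8 and 1929 for KRT81. In reads KRT8 was above KRT81 in both groups, and KRT14 was below KRT80 in control cells, at 334 against 394. Groups did not overlap in 8 of the 10 genes, or 7 of the 8 tested, against 82.8% of all genes tested.

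In the whole keratin family, levels in UDCA cells were led by KRT10. The table lists 20 of 29 type I and 12 of 26 type II keratin genes looked up, most of them at a few reads. Of the 32 listed, 7 were tested, of which 5 are in the chosen set and the others are KRT10 and KRT86. KRT10, the type I keratin of suprabasal epidermis, had 27.0, 32.7 and 29.5 FPKM in UDCA 1 to 3, against 14.0, 14.9 and 12.7 FPKM in control 1 to 3. Every UDCA library was higher, and KRT10 rose 2.14-fold (limma adjusted p = 1.69e-05). KRT10 made up 50.1 ± 1.70% of the summed keratin FPKM in UDCA cells and 30.2 ± 1.60% in control cells (SD, n = 3 each). KRT18 made up 25.3 ± 1.68% in UDCA cells and 34.9 ± 0.297% in control cells. The summed level was 59.3 ± 3.82 FPKM in UDCA cells and 46.0 ± 1.56 FPKM in control cells.

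Keratins below the filter are given by their reads alone. A lower filter of 0.1 FPKM would admit them mostly through the group where they are higher, so no test of them is given. Under that filter 65.4% of 22537 genes were called, 35.4% higher and 30.0% lower. KRT15 and KRT17, keratins of basal and appendage cells, had 16 and 13 reads in UDCA cells and 133 and 55 reads in control cells. KRT6B, a keratin induced by wounding, had 7 reads in UDCA cells and 103 in control cells. KRT9 had 1 read in UDCA cells and 31 in control cells, and KRT32 had 1 read in UDCA cells and 21 in control cells. In the other direction, KRT79, a keratin of the sebaceous duct, had 67 reads in UDCA cells and 0 in control cells, at least 23.0-fold higher when control cells are put at 3 reads in all. TP63, a transcription factor of basal epithelia, had 14 reads in UDCA cells and 146 in control cells.

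**Figure D3:**
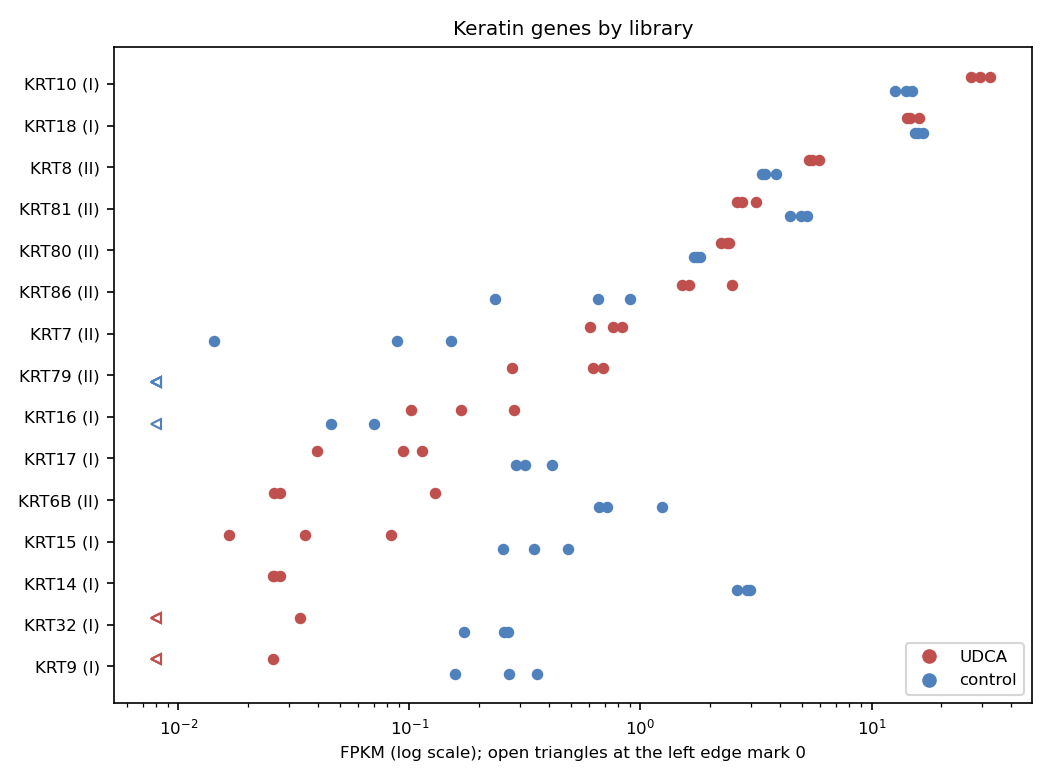
FPKM on a log scale for listed keratin genes that reach 0.25 FPKM in any library, 1 point per library, UDCA in red above control in blue; I and II give the type and open triangles mark 0. KRT10, KRT8, KRT80, KRT86, KRT7 and KRT79 lie further right in UDCA cells, and KRT81, KRT17, KRT6B, KRT15, KRT14, KRT32 and KRT9 further left.

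Beyond keratins, lists of related genes were compared in the same fit, and their tested genes outside the chosen set numbered 42. Of these, 13 averaged under 1 FPKM in one group and entered the test mostly through the other. Such entry favours a difference, though DSC2 among them was not called, so they are given by their values with no p. Of the other 29, 11 were called higher, 17 lower and 1 neither way. Their median log2 change was -0.48, against 0.10 over the 12013 genes that averaged 1 FPKM or more in both groups, of which 79.5% were called, 45.7% higher and 33.8% lower. The 29 include 8 non-keratin intermediate filament genes, all lower, with a median of -1.21, so the pooled median is not that of epithelial genes alone.

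Among the tight junction genes, CLDN15, TJP1 and CLDN12 rose. The table lists 28 of 32, and outside the chosen set 5 were tested, of which CLDN1 and CGN passed through one group alone. With the lower filter 15 were tested, and their calls are left out, since low genes enter it mostly through the group where they are higher. CLDN1, a claudin of the epidermal barrier, had 8.50, 7.72 and 8.25 FPKM in UDCA 1 to 3, against 0.0328, 0.0476 and 0.0154 FPKM in control 1 to 3. All UDCA libraries were far above, from 1493 reads in UDCA cells and 6 in control cells, and the mean was 255-fold higher. CLDN15 rose 2.34-fold, to 16.8 ± 0.732 against 7.16 ± 0.628 FPKM in control cells (limma adjusted p = 3.25e-06). TJP1, the scaffold protein ZO-1, rose 2.24-fold, with 16.6 ± 0.341 FPKM in UDCA cells and 7.41 ± 0.0561 FPKM in control cells (limma adjusted p = 9.68e-08). CLDN12 rose 2.14-fold, with 18.4 ± 1.63 against 8.60 ± 0.440 FPKM (limma adjusted p = 8.29e-06). Cingulin (CGN), a cytoplasmic plaque protein, was 3.17-fold lower, at 0.353 ± 0.0350 FPKM in UDCA cells and 1.12 ± 0.0303 FPKM in control cells.

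Genes of the cornified envelope other than SPRR2D were low, and lay in both directions. Of 46 looked up, 19 were listed, and outside SPRR2D 2 passed the filter, each through one group alone. CSTA, the protease inhibitor cystatin A, was 8.46-fold higher, with 1.21 ± 0.213 FPKM in UDCA cells and 0.144 ± 0.112 FPKM in control cells. CNFN (cornifelin) was 2.66-fold lower, with 0.632 ± 0.210 FPKM in UDCA cells and 1.68 ± 0.509 FPKM in control cells. CSTA had 83 reads in UDCA cells and 10 in control cells, and CNFN had 19 in UDCA cells and 52 in control cells. With the lower filter 6 were tested, but it admits low genes mostly through the group where they are higher, so no calls are given. Among them, TGM1, a transglutaminase that cross-links the envelope, had 91 reads in UDCA cells and 58 in control cells, LCE1D had 0 in UDCA cells and 10 in control cells, and filaggrin (FLG) had 44 in UDCA cells and 306 in control cells.

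Desmosomes and hemidesmosomes, the junctions that anchor keratin filaments, held genes that fell and genes that rose. Of 5 tested desmosome genes 1 rose and 3 fell, where 45.1% of all genes tested were called higher and 35.7% lower. PKP3 (plakophilin 3) fell 2.76-fold, with 1.74 ± 0.0643 FPKM in UDCA cells and 4.79 ± 0.0725 FPKM in control cells (limma adjusted p = 9.72e-07). PERP fell 1.43-fold (limma adjusted p = 0.000286) and PKP4 fell 1.22-fold (limma adjusted p = 0.000799), while DSG2 (desmoglein 2) rose 1.26-fold, with 38.5 ± 1.29 against 30.5 ± 0.220 FPKM (limma adjusted p = 3.57e-05). DSC2, which averaged under 1 FPKM in one group, was not called. Desmoplakin (DSP), which ties keratins to desmosomes, had 4 reads in each group. Of 6 tested hemidesmosome and cytolinker genes, ITGB4 passed through control cells alone, and of the other 5, 2 rose and 3 fell. Among all genes at 1 FPKM or more in both groups, 45.7% were called higher and 33.8% lower. Both chains of the integrin that anchors keratinocytes were lower. ITGA6 fell 5.50-fold, with 13.1 ± 0.366 FPKM in UDCA cells and 72.3 ± 1.64 FPKM in control cells (limma adjusted p = 2.74e-09). ITGB4 was 5.69-fold lower, with 0.524 ± 0.0293 FPKM in UDCA cells and 2.98 ± 0.208 FPKM in control cells. CD151 fell 1.51-fold and MACF1 fell 1.15-fold (limma adjusted p = 1.21e-05 and 0.00231). Plectin (PLEC), which links intermediate filaments to other structures, rose 1.77-fold, with 104 ± 2.25 FPKM in UDCA cells and 58.5 ± 2.01 FPKM in control cells (limma adjusted p = 4.05e-07), and DST (dystonin) rose 1.25-fold (limma adjusted p = 6.43e-05).

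Epithelial transcription factors other than ELF3 split. Of 7 tested, EHF and FOXA1 passed through control cells alone, and of the other 5, 3 rose and 2 fell. Among all genes at 1 FPKM or more in both groups, 45.7% were called higher and 33.8% lower. KLF4 rose 5.30-fold, with 15.9 ± 0.549 FPKM in UDCA cells and 3.00 ± 0.226 FPKM in control cells (limma adjusted p = 5.88e-08). KLF5 rose 2.82-fold, with 19.7 ± 1.40 against 6.98 ± 0.443 FPKM (limma adjusted p = 1.15e-06), and GRHL1 (grainyhead-like 1) rose 2.13-fold (limma adjusted p = 6.97e-05). KLF4 and KLF5 are factors of barrier and proliferating epithelia. TFAP2C fell 10.4-fold, with 9.35 ± 0.207 FPKM in UDCA cells and 97.1 ± 1.43 FPKM in control cells (limma adjusted p = 4.92e-10), and TFAP2A fell 2.65-fold (limma adjusted p = 1.35e-06). TFAP2 factors are known in ectoderm, neural crest and trophoblast. EHF, the ETS factor most like ELF3, was 4.51-fold lower, with 0.281 ± 0.0588 FPKM in UDCA cells and 1.27 ± 0.198 FPKM in control cells. FOXA1 was 2.13-fold lower.

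**Figure D4:**
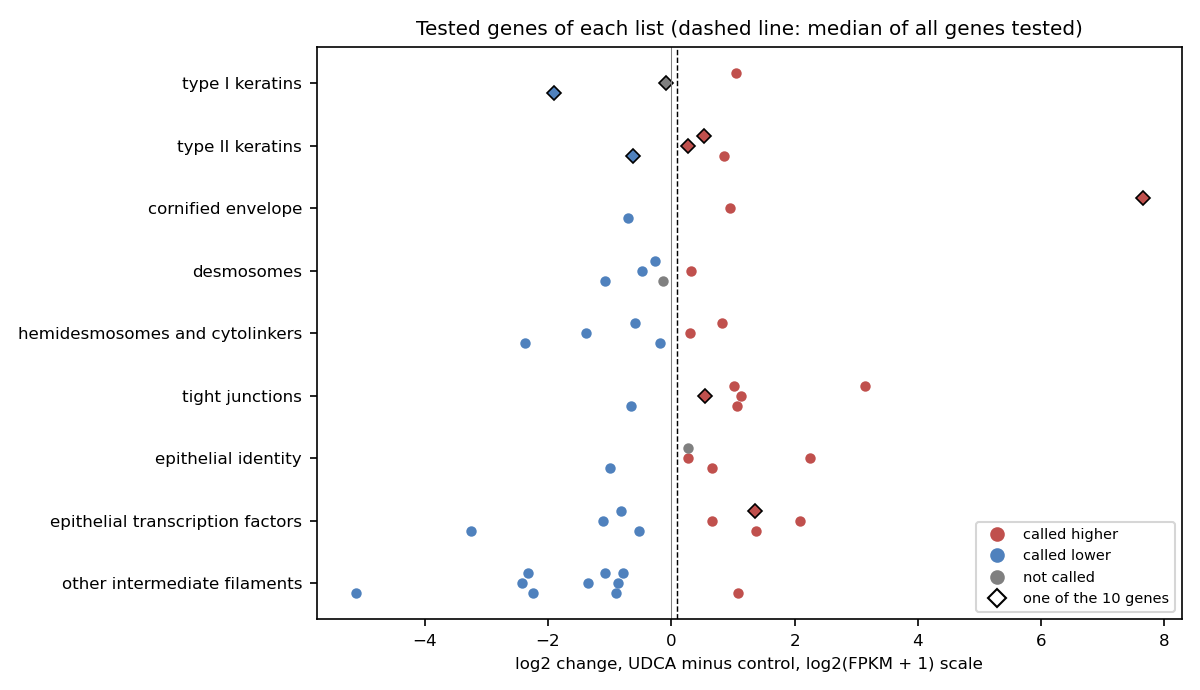
Log2 change of FPKM + 1, UDCA over control, for every tested gene in each list; red marks genes called higher, blue lower, grey not called, diamonds the chosen genes, and the dashed line the median of all genes tested (0.10). Keratins lie on both sides, SPRR2D stands far to the right, and the other intermediate filaments lie almost all to the left.

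Genes of epithelial identity were mostly under the filter: 21 were listed and 5 tested. ESRP1 and CDS1 passed through UDCA cells alone, and of the other 3, 1 rose, 1 fell and 1 was not called. Among all genes at 1 FPKM or more in both groups, 45.7% were called higher and 33.8% lower. ESRP1, an epithelial splicing regulator, was 12.7-fold higher, with 5.99 ± 0.278 FPKM in UDCA cells and 0.473 ± 0.0475 FPKM in control cells, and CDS1 was 2.76-fold higher. LAMB3, a laminin chain, rose 1.24-fold (limma adjusted p = 0.00281). LSR, a tricellular junction protein, fell 2.48-fold, with 1.98 ± 0.319 FPKM in UDCA cells and 4.91 ± 0.458 FPKM in control cells (limma adjusted p = 6.54e-05). SPINT1 had 1.80 ± 0.443 FPKM in UDCA cells and 1.32 ± 0.292 FPKM in control cells and was not called (limma adjusted p = 0.130). The defining adhesion genes of epithelia remained near 0: CDH1 (E-cadherin) had 3 reads in UDCA cells and 0 in control cells, and EPCAM had 12 reads in UDCA cells and 2 in control cells.

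**Figure D5:**
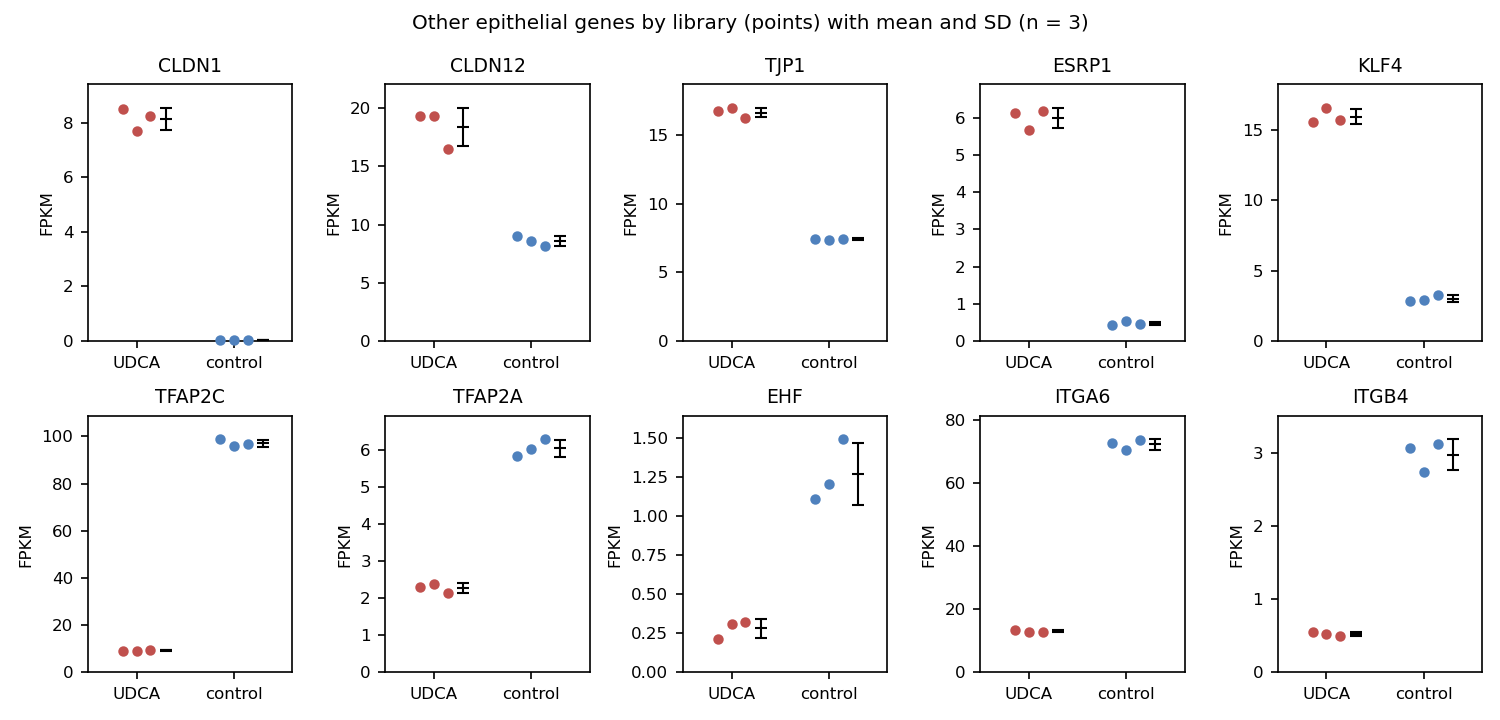
FPKM of 10 epithelial genes outside the chosen set in UDCA libraries (red) and control libraries (blue), with mean and SD (n = 3); axes start at 0. CLDN1, CLDN12, TJP1, ESRP1 and KLF4 lie higher in every UDCA library and TFAP2C, TFAP2A, EHF, ITGA6 and ITGB4 lower.

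Of the non-keratin intermediate filament genes 10 were tested, and the 8 that averaged 1 FPKM or more in both groups all fell, with a median log2 change of -1.21 against 0.10 over all such genes. Of all genes at that level in both groups, 33.8% were called lower and 45.7% higher. Vimentin (VIM), the filament of mesenchymal and glial cells, fell 2.57-fold, with 65.1 ± 0.801 FPKM in UDCA cells and 167 ± 1.83 FPKM in control cells (limma adjusted p = 5.03e-09). Nestin (NES), of neural progenitors, fell 5.50-fold, with 26.9 ± 0.280 against 148 ± 4.39 FPKM (limma adjusted p = 1.52e-09). Synemin (SYNM) fell 5.36-fold (limma adjusted p = 1.13e-09) and LMNB2 fell 5.03-fold (limma adjusted p = 1.33e-09). LMNB1, a nuclear lamin that passed mainly through control cells, was 71.7-fold lower, with 0.895 ± 0.284 FPKM in UDCA cells and 64.2 ± 0.551 FPKM in control cells. PRPH (peripherin), a filament of peripheral neurons that passed through UDCA cells alone, was 38.7-fold higher, with 1.20 ± 0.214 FPKM in UDCA cells and 0.0309 ± 0.0194 FPKM in control cells. AC125611.4, on the other strand, covers 56.2% of PRPH exon bases, so the gene and its antisense partner cannot be told apart there. Genes on the other strand also cover 24.4% of VIM and 27.7% of SYNM exon bases.

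Cell type markers were read beside these values, and their part in the results was not tested. The glial and glioma list, which includes VIM and NES, was detected, and 7 of its 8 markers were tested. Of these, 6 were called lower and 0 higher, where 35.7% of all genes tested were called lower and 45.1% higher. Markers that averaged under 1 FPKM in one group were not set apart in this count, so nothing is read from it. The summed level of the list was 156 to 158 FPKM in UDCA cells and 770 to 786 FPKM in control cells. GFAP, which defines astrocytes, was at 0.505 ± 0.0586 FPKM in UDCA cells and 0.612 ± 0.0807 FPKM in control cells (SD, n = 3 each) and was not tested. S100B had 12.5 ± 0.0593 FPKM in UDCA cells and 286 ± 10.1 FPKM in control cells. Of 8 keratinocyte markers 7 were listed, with a summed level of 27.1 to 32.8 FPKM in UDCA cells and 16.1 to 17.9 FPKM in control cells that was mostly KRT10. KRT14 and TP63, the others of the list with more than a few control reads, were lower in UDCA cells, with 3 and 14 reads there and 334 and 146 in control cells. The remaining markers were near 0: in UDCA cells KRT5 had 4 reads, DSG3 1, TRIM29 0 and COL17A1 2, and in control cells KRT5 had 0, DSG3 1, TRIM29 1 and COL17A1 3. The simple epithelium list summed to 25.8 to 27.7 FPKM in UDCA cells and 19.6 to 20.7 FPKM in control cells. Fibroblast markers summed to 9.51 to 10.3 FPKM in UDCA cells and 20.7 to 21.0 FPKM in control cells, and endothelial and blood markers to under 1 FPKM in every library. Of the tested fibroblast markers, PDGFRB had a log2 change of 0.53, LUM of -1.14 and PDGFRA of -1.20.

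Genes with profiles most like those of SPRR2D and KRT14 were found by Euclidean distance between log2(FPKM + 1) profiles over the 6 libraries, each centred on its own mean. Since both genes were chosen for their contrast, the distances are a description. Nearest to SPRR2D were CXCL3, a neutrophil chemokine, PTX3, a soluble pattern recognition protein, and LCN2, an iron-binding lipocalin, at distances of 2.04, 2.41 and 2.62. CXCL3 had 180 ± 4.24 FPKM in UDCA cells and 1.81 ± 0.383 FPKM in control cells (SD, n = 3 each), PTX3 had 207 ± 5.53 and 2.90 ± 0.512 FPKM, and LCN2 had 125 ± 3.10 and 1.71 ± 0.164 FPKM. Nearest to KRT14 were FANCB, SEMA5A and COL9A2, at distances of 0.0655, 0.0754 and 0.0827. FANCB had 0.0450 ± 0.0213 FPKM in UDCA cells and 2.82 ± 0.248 FPKM in control cells, SEMA5A had 1.28 ± 0.0346 and 7.70 ± 0.207 FPKM, and COL9A2 had 3.999 ± 0.0829 and 17.3 ± 0.372 FPKM. On this scale a gene that is low in UDCA cells and one that is merely lower can have the same profile.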

How the data were processed

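Poly(A) RNA libraries of LN229 cells, 3 treated with UDCA and 3 untreated, were grouped by their labels. GRCh38, HISAT2 and Bowtie2 2.0.6 are named, with no role, in the submitters' processing notes. The counting program was not given in the sources used here, nor its use of strand or of reads with several positions. The values deposited by the authors are FPKM per gene and library: this unit is not named and was inferred, since each value times the merged exon length in GENCODE 29 is a whole number of reads (100% of values, tolerance 0.01 reads). Totals of reads per library stand in the text, and intervals and floors (3 reads) cover counting error only. Symbols and positions come from GENCODE 29, and sequences from RefSeq.

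Genes at 1 FPKM or more in at least 3 libraries were tested on log2(FPKM + 1) with limma 3.58.1 (trend) in R 4.3.3, 2-sided, group as the only term, Benjamini-Hochberg at 0.05. This log2 scale understates changes of low genes, and FPKM carries no scaling beyond the library total. Separating genes that averaged under 1 FPKM in one group was decided after the values were seen. On simulated data of this comparison, the fit called 38 of 67 genes given a 1.5-fold change, 65 of 67 given 2-fold and 65 of 66 given 4-fold, beside 10 false calls in 13717 genes tested. The 200 changed genes were drawn from genes with many reads, at a dispersion set to 0.01. Far more genes were called in the data, and these rates do not cover genes with few reads. Exon sequences were compared by exact 50- and 100-base windows. The genes, lists and rules were chosen with earlier results of these data known. Named were the 10 genes, up to 4 called genes per list by size of change (at least 2 FPKM in the higher group), every gene that a count of 5 or fewer covers, near-identical copies, and the 3 protein-coding genes of nearest profile. TP63, FLG and genes in the closing observations that fall outside this rule were picked after their values were seen. Alternatives were 2 other scalings, 2 other filters, a pseudocount of 0.1 FPKM, limma voom on the recovered reads, a replicate block, and leaving out each library. Python 3.11.15, pandas 2.3.3 and matplotlib 3.10.9 made tables and plots.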

Additional observations from a re-analysis of the deposited data

How the results depend on the processing

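The numbers of genes called (11624 in the main comparison) stayed within 1.5 times under every alternative run: 11617 after quantile normalization, 11590 after median-ratio scaling, 11579 with a pseudocount of 0.1 FPKM, 11818 with voom on the recovered reads, 14451 with no filter and 14744 with a filter at 0.1 FPKM. Leaving out each library gave 11218 to 11381 genes. Deviations from the group mean correlated at -0.0012 to 0.0143 across genes between UDCA and control libraries of the same replicate number. Between those of different number the range was -0.0502 to 0.0416. These values show no pairing by replicate number, but cannot exclude one in the design. With the replicate number as a block 11503 genes were called. Among the list genes outside the chosen 10, 40 of 42 tested were called, where 80.8% of all genes tested were called. These 40 include genes that entered the test through one group. The number was 67 with no filter and 62 with a filter at 0.1 FPKM, where more genes are tested and more enter through one group. With the 0.1 FPKM filter 65.4% of all genes tested were called. Leaving out each library gave 40 to 41. PRPH fell below the filter under median-ratio scaling, which left 39 called. No other called list gene lost its call in any alternative run, and no called one changed direction. DSC2 was called with voom alone, and SPINT1 with voom, with the block and without UDCA 2. The log2 changes of low genes moved most, because the pseudocount holds them down: ELF3 ranged from 1.32 to 8.60 over the alternatives, KRT14 from -6.17 to -1.87 and SPRR2D from 7.55 to 9.96. KRT8 stayed between 0.46 and 0.66, KRT80 between 0.21 and 0.41, KRT81 between -0.78 and -0.57 and CLDN4 between 0.50 and 1.18. The main limits are the depth of genes with a few reads, exon sequence shared between copies, unknown strand handling, and libraries that may not be separate cultures.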

Other observations

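The chosen genes lie in gene clusters whose other tested genes are given here. Cluster bounds were set after the values were seen. In the type II keratin cluster from KRT80 to KRT18 on chromosome 12, 21 genes were listed and 7 tested. Its tested genes outside the chosen set were KRT86, KRT87P and AC121757.1, which carries only a clone name, and each passed the filter through UDCA cells alone and had to differ. AC121757.1 had 3.49 ± 0.370 FPKM in UDCA cells and 0.184 ± 0.154 FPKM in control cells (SD, n = 3 each), 19.0-fold higher, from 109 reads in UDCA cells and 6 in control cells. Its exons overlap those of KRT86 on the other strand. In the type I cluster from KRT222 to KRT17 on chromosome 17, 31 were listed and 3 tested: KRT14, KRT10 and TMEM99, which rose 1.61-fold, with 8.72 ± 0.298 FPKM in UDCA cells and 5.42 ± 0.323 FPKM in control cells (limma adjusted p = 2.50e-05).

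The epidermal differentiation complex on chromosome 1, from S100A10 to S100A1, holds SPRR2D among genes of the cornified envelope and S100 calcium-binding proteins. Of 35 genes listed there, 9 outside the chosen set were tested, of which 3 were under 1 FPKM on average in one group and are left out here. Of the other 6, 1 was called higher, 4 lower and 1 neither way, where 45.7% of all genes at 1 FPKM or more in both groups were called higher and 33.8% lower. S100A11, the gene that rose, had 355 ± 6.51 FPKM in UDCA cells and 205 ± 8.19 FPKM in control cells (SD, n = 3 each), 1.74-fold higher (limma adjusted p = 5.94e-07). S100A6 fell, with 440.1 ± 8.46 FPKM in UDCA cells and 661 ± 41.9 FPKM in control cells (limma adjusted p = 1.97e-05), as did S100A16, with 44.0 ± 1.70 against 84.2 ± 1.06 FPKM (limma adjusted p = 2.32e-07). Within 100 kb of SPRR2D 3 other genes were listed and 0 tested, and within 100 kb of KRT14 7 were listed and 0 tested.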
